A study of Oryctolagus cuniculus with 49 samples.

Results

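The genes described here are the G protein coupled receptors of the rabbit iris and ciliary body, 84 of the 12948 genes in the deposited table. They were chosen by the start of the gene symbol, as adrenergic, muscarinic, adenosine, P2Y, sphingosine-1-phosphate (S1P), lysophosphatidic acid (LPA), prostanoid, endothelin, serotonin, neuropeptide Y (NPY), angiotensin, protease-activated, calcitonin-like, vasoactive intestinal peptide (VIP), adhesion, class C orphan or numbered GPR genes. No measured value entered this choice by symbol, but to be listed at all a gene needed a minimum level, as given below. The largest families were the numbered GPR genes with 21 members and the adhesion receptors with 15. No relaxin or melanocortin receptor was listed. Among the 84, AGTRAP encodes a protein that binds the angiotensin receptor and GPR89B a Golgi channel, so these matched by name without being receptors of the family.

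G protein coupled receptors cross the membrane in a bundle of helices and, once a ligand binds, switch a heterotrimeric G protein that steers cyclic AMP, calcium or cytoskeletal signalling. Gs raises cyclic AMP, Gi lowers it, Gq releases calcium through phospholipase C, and G12/13 acts on the actin cytoskeleton. In the front of the eye they set the pupil through muscarinic and adrenergic receptors on iris muscle, control aqueous humour formation in the ciliary epithelium, and mediate prostaglandin, purine and protease signals of the injured iris.

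Transcripts were measured by RNA sequencing in the iris and ciliary body of New Zealand white rabbits, an albino laboratory breed. Operated eyes had undergone lensectomy, the removal of the lens, with insertion of an artificial intraocular lens, and unoperated eyes had not. The groups used were 7 unoperated and 3 operated libraries from rabbits aged 5 weeks, 3 operated libraries at 6.5 weeks, and 7 unoperated and 6 operated libraries at 6 months. The sources used here do not state how long after surgery tissue was taken, and no unoperated library of 6.5 weeks is in the labels, so surgery and growth cannot be told apart in that group. The labels do not say whether libraries of a group came from separate rabbits, so p-values measure the spread between libraries, which may be partly technical.

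Values are FPKM, fragments scaled to transcript length and library size, so levels of different genes can be compared per length. The sum of FPKM was 412936 to 504202 per library. Read depth is unknown, because the files used here hold no counts. In bulk tissue, fewer cells of a type and less RNA per cell cannot be told apart. The pigment cell markers (8 of 8 measured) summed to 1240 FPKM or more in every library and the ciliary epithelium markers (9 of 10 measured) to 1090 FPKM or more. Lens transcripts were present to a varying degree, and their source was not tested. The alpha A crystallin gene CRYAA, which encodes a lens protein, exceeded 1000 FPKM in 8 libraries. Of these 4 were 5-week unoperated, 1 was 5-week operated, 1 was 6-month unoperated and 2 were 6-month operated. Macrophage markers (11 of 13 measured, none at 0) summed to 96.3 to 221 FPKM in unoperated and 428 to 1030 FPKM in operated juveniles, and to 128 to 338 FPKM in unoperated and 373 to 947 FPKM in operated 6-month eyes.

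For a transcript to be listed, all libraries of some group had to exceed 1 FPKM, with the operated juveniles pooled into 1 of 4 such groups. Of the 84 receptor genes, 57 met this in all 4 groups. Another 8 were listed through operated groups only, among them ADGRD1, ADORA3, GPR19, GPR65, HTR1B, LPAR5 and P2RY13, and 8, namely ADGRG2, AGTR1, GPRC5B, HTR1A, HTR1D, LPAR4, NPY2R and P2RY6, through unoperated groups only. For these 16 genes the listing itself favours a difference by treatment. Among genes with several transcripts, S1PR1 and GPRC5A each include a transcript listed through operated groups only, which favours a rise of their summed levels. By age, 10 genes (ADGRL3, ADORA3, ADRA1D, GPR75, HTR1B, HTR1D, HTR2B, LPAR5, P2RY6 and PTGFR) were listed through 6-month groups only, and 6, among them ADGRD1, ADGRG2, AGTR1, GPR19 and GPRC5B, through juvenile groups only. For these the listing favours a difference by age, and receptors low in every group are not in view. Counts of receptors over the 84 listed genes are therefore given as a description. The same listing rule held for the pathway and marker genes below, and their counts are descriptions as well.

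The adenosine A1 receptor ADORA1, a Gi-coupled receptor that lowers cyclic AMP, was by far the most abundant receptor transcript. Its single listed transcript averaged 2060 FPKM over the 26 libraries, which placed it at rank 11 of all 12948 genes. It made up 60.4% of the summed receptor FPKM in the median 5-week operated library and 67.2% in the median 6-month operated library, with the other groups between. The next were GPR39, a zinc-sensing receptor, at a mean of 120 FPKM, the VIP receptor VIPR2 at 96.2 FPKM, the adhesion receptor ADGRA2, a partner of WNT7 signalling in vessels, at 82.9 FPKM, and the endothelin receptor EDNRB at 60.5 FPKM. EDNRA followed at 42.0 FPKM, then CHRM4 at 40.6, S1PR1 at 34.8, ADGRA3 at 32.3 and CALCRL at 27.9 FPKM. The median of the 84 means was 7.29 FPKM, 30 genes reached 10 FPKM, and 24 lay under 3 FPKM. The plot of mean levels by family shows ADORA1 more than 10 times above the next receptor, and the serotonin and NPY receptors all under 4 FPKM.

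**Figure D1:**
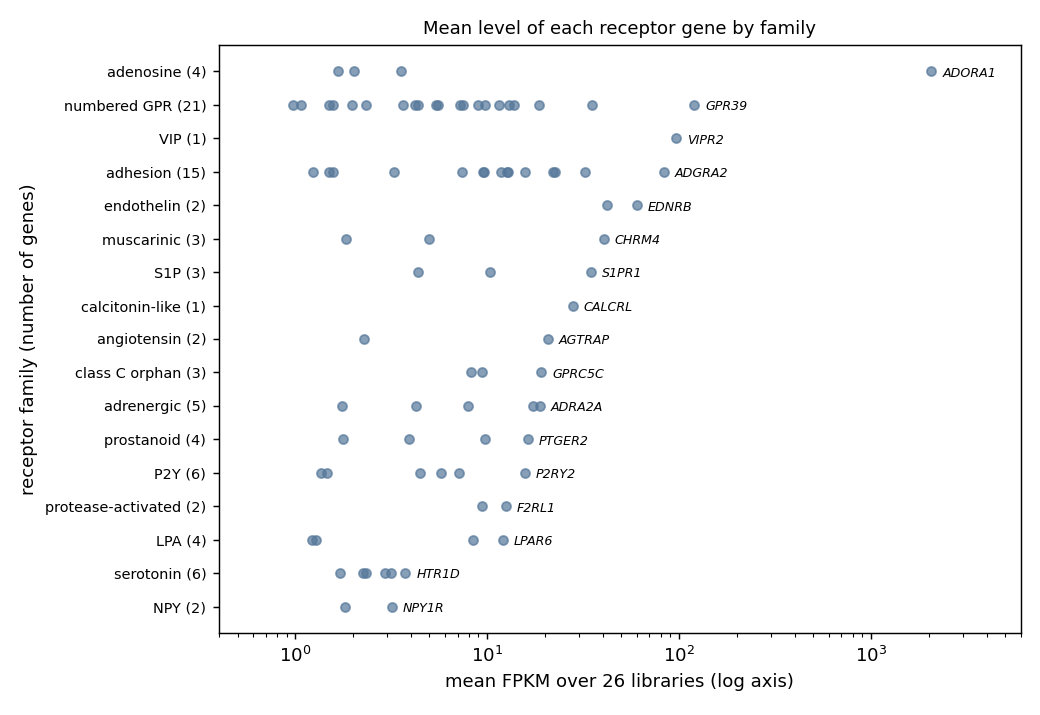
Mean FPKM over 26 libraries of each of the 84 receptor genes (log axis), in rows by family, with the most abundant gene of each family named. ADORA1 stood at 2060 FPKM, and the highest serotonin receptor and the highest NPY receptor at 3.75 and 3.2 FPKM.

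At 6 months, 19 receptor genes were higher and 16 lower in operated eyes (limma, Benjamini-Hochberg adjusted p under 0.05 over all genes, as for every call below). That is 41.7% of the 84, where 46.1% of all genes were called. Called higher were 22.6% of the receptors and 16.0% of all genes, and called lower 19.0% of the receptors and 30.1% of all genes. The median log2 difference was -0.03 over the receptors and -0.11 over all genes. The split depended on scaling: 14 receptors were higher and 24 lower with the library sums made equal, and 26 were higher and 14 lower with median-ratio scaling, which moved the median of all genes to -0.245 and -0.011.

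In juveniles, with the 5-week and 6.5-week operated groups averaged and set against unoperated 5-week eyes, 19 receptor genes were higher and 15 lower. That is 40.5% of the receptors, beside 37.3% of all genes (16.5% higher and 20.8% lower). With equal library sums 17 were higher and 24 lower, and without the 8 lens-rich libraries (over 1000 FPKM of CRYAA) 12 and 9. The latter setting leaves 3 unoperated 5-week libraries and so less power. The surgery comparisons at the 2 ages share no library. Higher at both ages were 12 genes (among them ADGRE5, ADGRL4, ADORA3, ADRA1B, F2RL1, GPR19, GPR65, GPRC5A, HTR7, P2RY2 and PTGER2) and lower at both ages 9 (ADGRA2, ADGRV1, ADORA2A, AGTR1, CHRM2, CHRM4, EDNRB, HTR1A and LPAR4). None was called in opposite directions, and 36 were called at neither age. As shares of the 84 these were 14.3% higher at both, 10.7% lower at both and 42.9% at neither, beside 11.9%, 16.6% and 45.1% of all genes, of which 0.1% were called in opposite directions. The plot of the surgery differences at the 2 ages shows these 21 genes along the diagonal, with S1PR3 apart from it.

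**Figure D2:**
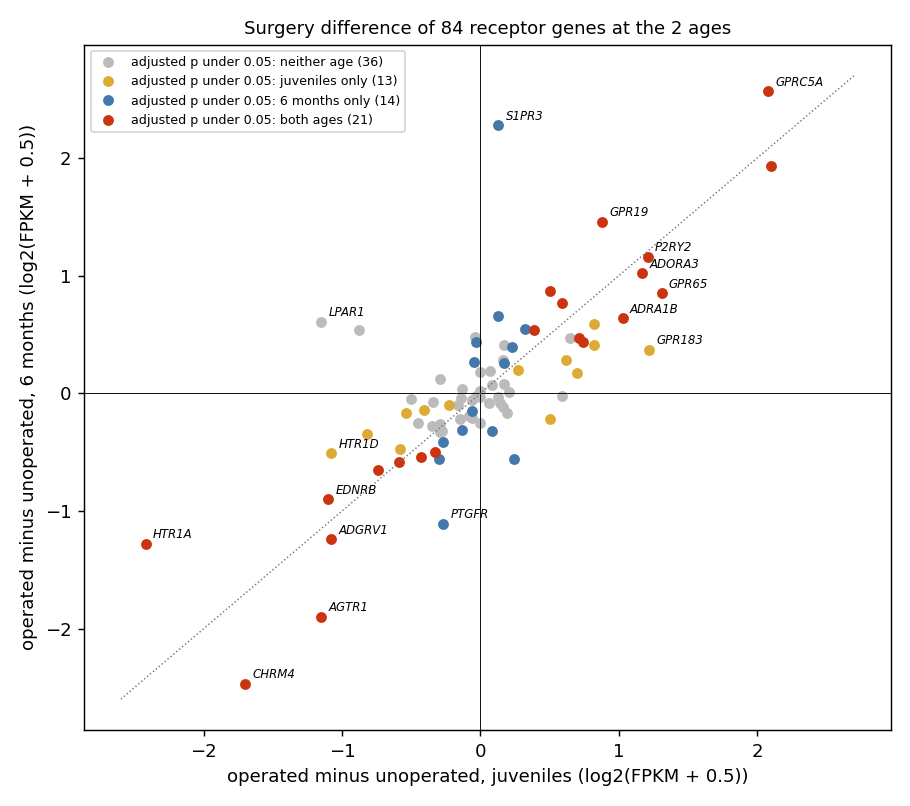
Difference between operated and unoperated eyes in log2(FPKM + 0.5) for the 84 receptor genes, in juveniles (x axis) and at 6 months (y axis). Colours give the ages at which adjusted p was under 0.05, the dotted line marks equal differences, and most genes with a difference of at least 0.9 at either age are named. S1PR3 lay at 2.28 at 6 months and 0.13 in juveniles.

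Among the purine receptors, the ATP and UTP receptor P2RY2, which couples to Gq, rose most evenly. At 6 months it measured 9.09, 9.98 and 11.6 FPKM in unoperated eyes (lowest, median and highest) and 20.7, 24.0 and 26.5 FPKM in operated eyes. In juveniles it measured 8.17, 8.91 and 9.84 FPKM in unoperated eyes, 27.3, 17.7 and 19.0 FPKM in the 3 operated 5-week eyes (replicates 1 to 3, as for all groups of 3) and 17.3, 19.6 and 29.4 FPKM in the operated 6.5-week eyes. Every operated library was above every unoperated library. P2RY2 was thus 2.23-fold higher at 6 months (log2 difference 1.16 ± 0.11 (SE), adjusted p = 5.33e-09 by limma) and 2.31-fold higher in juveniles (1.21 ± 0.11, adjusted p = 3.89e-09 by limma).

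Of the 5 other P2Y receptors, P2RY13, an ADP receptor of microglia and other myeloid cells, rose in juveniles (0.82 ± 0.25) and was 0.59 ± 0.25 higher at 6 months, with adjusted p = 0.0583 there. P2RY1, P2RY6, P2RY11 and P2RY14 passed the test at neither age. Of the enzymes that break down extracellular nucleotides, ENTPD1 rose at both ages (0.81 and 0.89 on the log2 scale) and ENTPD3 fell at both (-0.77 and -1.23). NT5E, which makes adenosine from AMP, rose in juveniles (0.95) and was 0.62 higher at 6 months with adjusted p = 0.108.

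The adenosine receptors split. ADORA1 measured 2140, 2370 and 2570 FPKM in unoperated and 1970, 2140 and 2530 FPKM in operated 6-month eyes, a difference of -0.10 ± 0.09 that missed the threshold (adjusted p = 0.359 by limma). In juveniles it fell by 0.23 ± 0.09 on the log2 scale (adjusted p = 0.0427 by limma), near the threshold. That difference averages the operated 5-week and 6.5-week groups, which were not alike. The share of ADORA1 in the summed receptor FPKM was 57.2% to 60.8% in operated 5-week eyes. It was 59.0% to 67.6% in operated 6.5-week eyes, beside 59.9% to 66.2% in unoperated 5-week eyes. ADORA2A, a Gs-coupled receptor, fell at both ages by 0.50 ± 0.12 and 0.33 ± 0.12. ADORA3, a receptor of mast cells and myeloid cells, rose from 0.72, 1.01 and 2.84 FPKM to 1.85, 3.09 and 5.03 FPKM at 6 months (1.02 ± 0.27) and rose in juveniles (1.17 ± 0.27). It was listed through operated 6-month eyes only, so its rises are given as a description. ADORA2B passed the test at neither age.

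The muscarinic receptors bind acetylcholine, the transmitter that constricts the pupil. CHRM4, a Gi-coupled member, had the largest fall of any receptor at 6 months. It measured 58.6, 69.6 and 89.8 FPKM in unoperated 6-month eyes and 7.38, 9.50, 10.3, 8.53, 15.6 and 42.1 FPKM in the operated ones. In juveniles it measured 39.7, 47.2 and 65.9 FPKM in unoperated eyes, 17.2, 14.2 and 13.6 FPKM in operated 5-week eyes and 14.0, 14.9 and 17.3 FPKM in operated 6.5-week eyes. The groups did not overlap at either age, and 1 operated 6-month library (replicate 6, 42.1 FPKM) stood well above the other operated ones. The log2 difference was -2.47 ± 0.26 at 6 months (adjusted p = 5.78e-08 by limma) and -1.70 ± 0.26 in juveniles (adjusted p = 1.43e-05 by limma). Without replicate 6 the 6-month difference was -2.81.

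CHRM2, the other Gi-coupled member, fell from a median of 2.43 to 1.16 FPKM at 6 months (-0.65 ± 0.12) and from 2.52 FPKM to between 1.05 and 1.65 FPKM in juveniles (-0.74 ± 0.12). The Gq-coupled CHRM1 did not pass the test for surgery at either age (0.41 and 0.17 on the log2 scale, adjusted p = 0.0793 and 0.521 by limma).

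Adrenergic receptors answer noradrenaline, the transmitter that widens the pupil. ADRA1B, a Gq-coupled alpha-1 receptor, rose at both ages. It measured 5.09, 7.08 and 11.3 FPKM in unoperated and 9.14, 11.2 and 15.8 FPKM in operated 6-month eyes, and the groups overlapped through 1 high unoperated library. In juveniles it measured 3.47, 4.51 and 4.99 FPKM in unoperated eyes and 6.09 to 12.5 FPKM in the 6 operated libraries, without overlap. The differences were 0.64 ± 0.14 (adjusted p = 0.000784 by limma) and 1.03 ± 0.14 (adjusted p = 3.88e-06 by limma). ADRA1A, ADRA1D and the alpha-2 receptor ADRA2A passed the test for surgery at neither age.

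Of the 6 serotonin receptors, HTR1A, which couples to Gi, fell at both ages and HTR7, which couples to Gs, rose at both. HTR1A measured 3.58, 6.57 and 12.1 FPKM in unoperated 5-week eyes, 1.19, 1.82 and 0.92 FPKM in operated 5-week eyes and 0.37, 0.72 and 0.51 FPKM in operated 6.5-week eyes. At 6 months it measured 1.68, 3.09 and 3.82 FPKM in unoperated and 0.52, 0.875 and 1.53 FPKM in operated eyes. The groups were apart at both ages. The log2 differences were -2.42 ± 0.23 in juveniles (adjusted p = 1.11e-08 by limma) and -1.28 ± 0.23 at 6 months (adjusted p = 7.92e-05 by limma). HTR1A was listed through unoperated groups only, which favours a fall, so these differences are given as a description.

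HTR7 rose from 1.17, 1.47 and 1.77 FPKM to 2.21, 2.88 and 3.29 FPKM at 6 months (0.77 ± 0.14) and by 0.59 ± 0.14 in juveniles. HTR1D fell in juveniles (-1.08 ± 0.29), but the call was lost when each gene was represented by its highest transcript (-0.48, adjusted p = 0.238 by limma). HTR1B, HTR2B and HTR5A passed the test for surgery at neither age.

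Among the peptide receptors, EDNRB, the endothelin receptor of pigment cells, endothelium and ciliary epithelium, fell at both ages. It measured 53.5, 63.9 and 80.9 FPKM in unoperated and 28.6, 34.4 and 40.6 FPKM in operated 6-month eyes. Juvenile values were 63.2, 90.5 and 131 FPKM in unoperated eyes, 35.3, 46.8 and 35.3 FPKM in operated 5-week eyes and 44.5, 58.0 and 36.2 FPKM in operated 6.5-week eyes. Operated libraries all lay below unoperated libraries of the same age class. The log2 differences were -0.90 ± 0.14 (adjusted p = 1.73e-05 by limma) and -1.10 ± 0.14 (adjusted p = 1.55e-06 by limma).

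EDNRA, the endothelin receptor of smooth muscle, missed the threshold at both ages (-0.28 ± 0.17 and -0.35 ± 0.17, adjusted p = 0.166 and 0.0976 by limma). The endothelin genes moved apart. EDN1, the vasoconstrictor, rose from a median of 20.1 to 43.6 FPKM at 6 months (1.31 ± 0.20) and by 0.98 ± 0.20 in juveniles. EDN3, the preferred partner of EDNRB in melanocyte development, fell from a median of 25.0 to 9.80 FPKM at 6 months (-1.33 ± 0.22) and by 1.44 ± 0.22 in juveniles. EDN2 fell by 1.03 ± 0.28 and 2.46 ± 0.28, and ECE1, which cleaves the endothelin precursors, rose by 0.58 and 0.51. The pigment cell markers fell with surgery, 8 of 8 at 6 months and 7 of 8 in juveniles, with summed levels of 2060 to 2580 FPKM in unoperated and 1240 to 1810 FPKM in operated 6-month eyes. Of the 9 measured ciliary epithelium markers 5 fell and 1 rose at 6 months, with sums of 2620 to 3510 FPKM and 1270 to 2360 FPKM. The part of these cells in the values of EDNRB, EDN3 and CHRM4 was not tested.

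**Figure D3:**
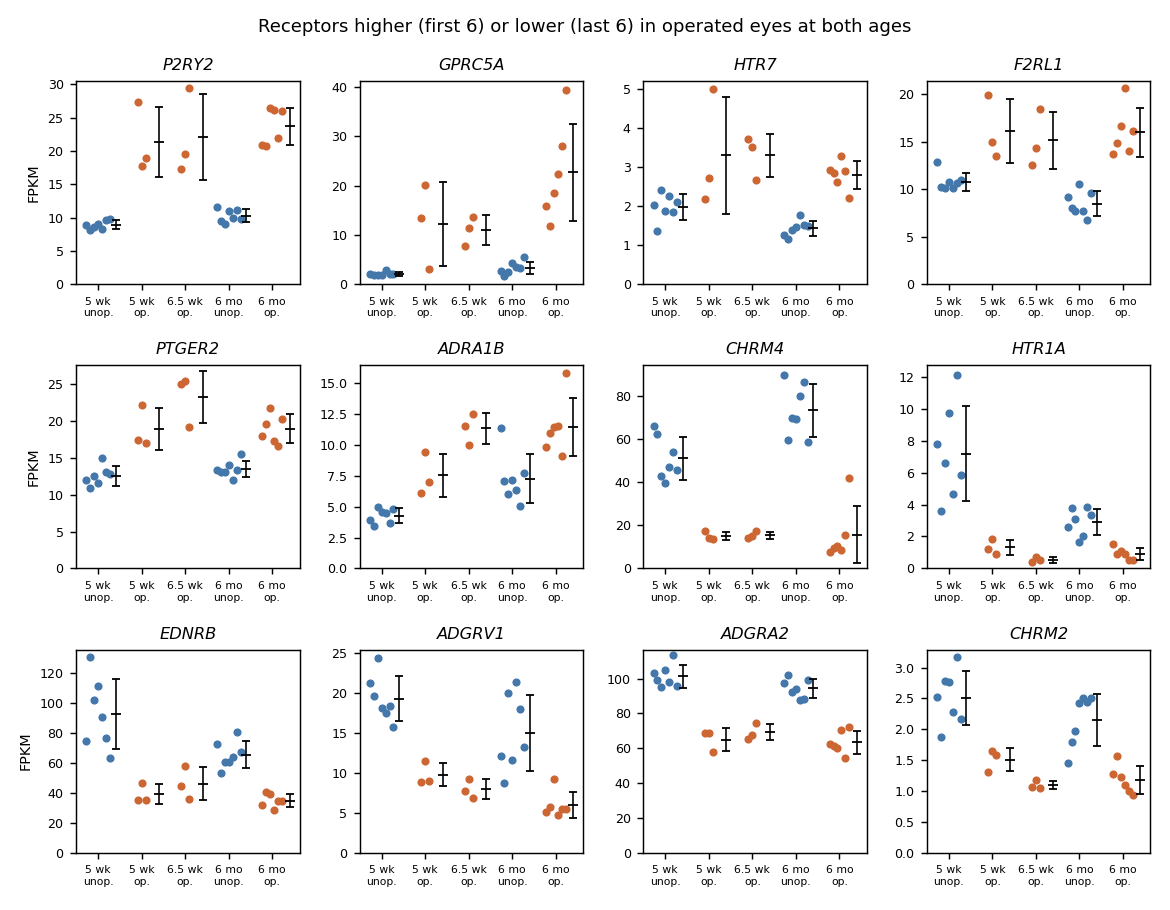
FPKM of 12 receptor genes in each library (points; blue unoperated, orange operated) by group, with mean and SD (black bar). The first 6 genes were higher and the last 6 lower in operated eyes at both ages; CHRM4 measured 58.6 to 89.8 FPKM in unoperated and 7.38 to 42.1 FPKM in operated 6-month eyes.

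AGTR1, the receptor through which angiotensin II raises blood pressure, was lower in operated eyes. It was listed through unoperated 5-week eyes only, which favours a fall in juveniles, and its differences are given as a description. At 6 months unoperated eyes measured 3.69, 4.32, 3.01, 4.55, 4.71, 0 and 2.73 FPKM and operated eyes 0.70, 0.63, 0.33, 0, 0.74 and 0 FPKM. In juveniles it lay between 1.84 and 5.72 FPKM in unoperated and between 0.99 and 1.81 FPKM in operated eyes, a narrow gap. The differences were -1.90 ± 0.40 (adjusted p = 0.000474 by limma) and -1.15 ± 0.40 (adjusted p = 0.0272 by limma). The juvenile call was lost with a pseudocount of 0.1 (adjusted p = 0.14) and without the 8 libraries over 1000 FPKM of CRYAA (adjusted p = 0.38). ACE, which makes angiotensin II, fell at 6 months (-0.47 ± 0.16) and differed by 0.05 ± 0.16 in juveniles.

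VIPR2, a Gs-coupled receptor, fell at 6 months from 104, 118 and 124 FPKM to 83.6, 94.0 and 98.4 FPKM, without overlap. The difference was -0.31 ± 0.06 (adjusted p = 0.000165 by limma), and in juveniles -0.13 ± 0.06 (adjusted p = 0.0986 by limma). The NPY receptors NPY1R and NPY2R fell in juveniles by 0.58 ± 0.21 and 0.82 ± 0.24 and missed the threshold at 6 months. The NPY2R call was lost without the 8 lens-rich libraries (adjusted p = 0.0636), and its listing through unoperated groups only favours a fall. NPY itself, a sympathetic cotransmitter, fell at both ages, from a median of 13.8 to 0.55 FPKM at 6 months and by 2.01 ± 0.51 on the log2 scale in juveniles. CALCRL, which binds calcitonin gene-related peptide or adrenomedullin depending on its RAMP partner, passed the test at neither age (-0.10 ± 0.15 and -0.16 ± 0.15). RAMP2, the partner that gives it adrenomedullin binding, rose at both ages (0.46 ± 0.09 and 0.64 ± 0.09), and RAMP1 passed the test at neither.

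Of the 4 prostanoid receptors, PTGER2, a Gs-coupled receptor of prostaglandin E2, rose at both ages. It measured 12.1, 13.4 and 15.5 FPKM in unoperated and 16.7, 18.8 and 21.8 FPKM in operated 6-month eyes. Juvenile values were 10.9, 12.6 and 15.0 FPKM in unoperated eyes and 17.1 to 25.5 FPKM in the 6 operated libraries. The groups were separate at both ages. The differences were 0.47 ± 0.08 (adjusted p = 8.4e-05 by limma) and 0.71 ± 0.08 (adjusted p = 4.12e-07 by limma).

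PTGFR, the prostaglandin F receptor targeted by glaucoma drugs, went the other way at 6 months. It measured 3.95, 8.46 and 9.67 FPKM in unoperated and 2.15, 3.45 and 3.76 FPKM in operated eyes, a difference of -1.11 ± 0.31 (adjusted p = 0.00467 by limma). In juveniles, where it was low in both groups, the difference was -0.27 ± 0.31 (adjusted p = 0.515 by limma). The difference between the ages was -0.84 on the log2 scale and did not pass the test. PTGER4 and PTGIR passed the test at neither age. Among 8 measured genes of prostanoid synthesis, transport and breakdown, 5 rose and 1 fell at 6 months, and 4 rose and 1 fell in juveniles. That is 75% and 62.5% of these few genes, beside 46.1% and 37.3% of all genes. Besides the cyclooxygenases PTGS1 and PTGS2, the transporter SLCO2A1 rose at both ages (1.46 ± 0.12 and 1.63 ± 0.12), as did the thromboxane synthase TBXAS1 (0.56 ± 0.11 and 0.71 ± 0.11). PTGES, a prostaglandin E synthase, rose at 6 months (0.59 ± 0.14) and was 0.34 higher in juveniles with adjusted p = 0.0528.

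S1PR3, an S1P receptor of vessel wall and stroma that couples to Gi, Gq and G12/13, passed the test at 6 months and not in juveniles. Unoperated 6-month eyes measured 2.52, 1.66, 2.46, 1.14, 2.55, 2.41 and 1.80 FPKM, and operated 6-month eyes 29.1, 7.92, 21.2, 8.80, 6.06 and 9.86 FPKM. Unoperated 5-week eyes measured 8.80, 26.5, 3.97, 18.2, 4.71, 3.72 and 29.3 FPKM, operated 5-week eyes 27.2, 10.4 and 6.34 FPKM, and operated 6.5-week eyes 12.5, 13.3 and 5.61 FPKM. The 6-month unoperated libraries were all below every other library, and the remaining groups overlapped widely. The 6-month surgery difference was 2.28 ± 0.47 (adjusted p = 0.000384 by limma) and that in juveniles 0.13 ± 0.47 (adjusted p = 0.85 by limma). The difference between the 2 surgery effects, 2.15 ± 0.66, did not pass (adjusted p = 0.133 by limma).

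S1PR3 moved with the level of lens transcripts in several groups. In the 8 libraries over 1000 FPKM of CRYAA its median was 23.8 FPKM. Within the operated 6-month eyes the 2 such libraries measured 21.2 and 29.1 FPKM and the other 4 measured 6.06 to 9.86 FPKM. Within the unoperated 5-week eyes the 4 such libraries measured 4.71 to 29.3 FPKM and the other 3 measured 3.72 to 8.80 FPKM. The 1 such unoperated 6-month library was at 2.46 FPKM, inside the range of its group. Without these 8 libraries the 6-month surgery difference was 1.80 (adjusted p = 9.8e-05 by limma), and with lens and retina levels as covariates it was 1.69 (adjusted p = 0.000141 by limma). Over the 28 alternatives it ran from 1.69 to 2.50.

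**Figure D4:**
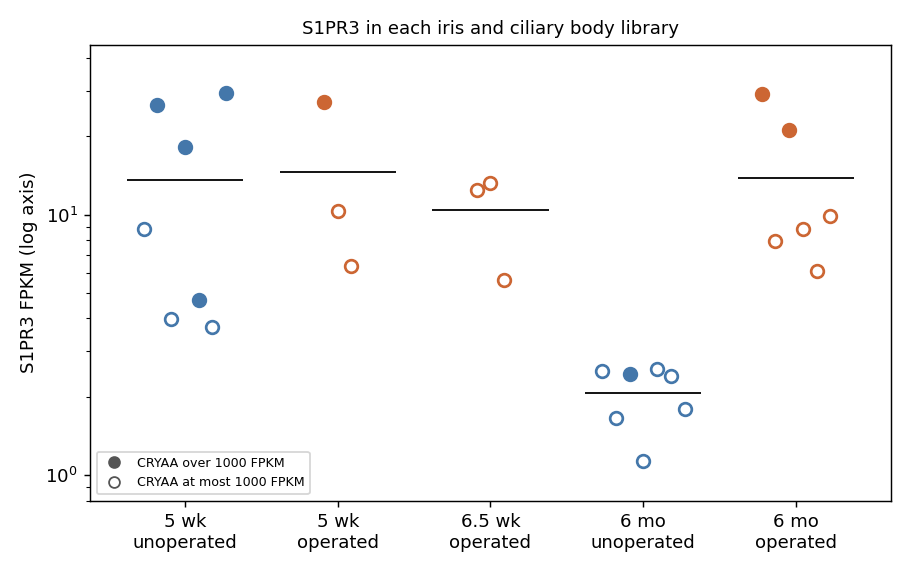
S1PR3 FPKM (log axis) in each of the 26 libraries by group (blue unoperated, orange operated), with the group mean as a line. Filled points had over 1000 FPKM of the lens gene CRYAA. The 7 unoperated 6-month libraries lay between 1.14 and 2.55 FPKM, and the lowest of all others was at 3.72 FPKM.

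S1PR1, the endothelial S1P receptor, rose at 6 months from 34.6, 37.0 and 38.2 FPKM to 35.8, 45.2 and 55.5 FPKM (0.26 ± 0.09, adjusted p = 0.0204 by limma). It missed the threshold in juveniles (0.17 ± 0.09, adjusted p = 0.15 by limma), and S1PR2 did so at both ages. The level of S1PR1 is a sum that includes a transcript listed through operated groups only, which favours a rise. S1PR3 accounted for 2.64% to 6.21% of the summed FPKM of the 3 S1P receptors in unoperated 6-month eyes and for 10.8% to 42.5% in operated ones. Of the 12 measured endothelial markers, 8 rose and 1 fell at 6 months, with summed levels of 189 to 232 FPKM and 255 to 422 FPKM in the same groups, and 8 rose and 1 fell in juveniles. Their part in S1PR1 and S1PR3 was not tested.

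In the whole list of 16 measured S1P and LPA enzymes and transporters, 4 rose and 3 fell at 6 months, and 6 rose and 3 fell in juveniles, with a median log2 difference of 0.03 and 0.15. That is 43.8% called at 6 months, near the 46.1% of all genes, and 56.2% in juveniles, beside 37.3%. SPHK1, the kinase that makes S1P, rose from a median of 1.76 to 4.54 FPKM at 6 months (0.98 ± 0.19) and by 1.61 ± 0.19 in juveniles. The S1P exporter SPNS2 rose by 0.71 ± 0.12 and 1.22 ± 0.12. The phosphatase SGPP2 fell by 1.47 ± 0.18 and 0.85 ± 0.18, and the transporter MFSD2A fell by 1.32 ± 0.23 and 2.09 ± 0.23.

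The 5 genes whose log2 levels over the 26 libraries were most like those of S1PR3 were ARHGAP24 (Pearson r = 0.95), ANXA8 (0.88), COL4A1 and CADM3 (0.87 each) and AKR1B1 (0.86). Among the receptors they were F2R (0.73), GPR137B (0.59), F2RL1 (0.58), GPR161 (0.57) and ADGRF1 (0.52). These are descriptions across libraries that share group differences and differences in lens transcripts.

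Of the LPA receptors, LPAR4 fell at both ages, from 1.09, 1.19 and 1.46 FPKM to 0.48, 0.71 and 1.06 FPKM at 6 months (-0.54 ± 0.12) and by 0.43 ± 0.12 in juveniles. In juveniles the operated 5-week eyes measured 1.5, 1.59 and 1.39 FPKM and the operated 6.5-week eyes 1.02, 0.93 and 0.50 FPKM. With the operated 5-week eyes alone the juvenile difference was -0.12 (adjusted p = 0.59 by limma). LPAR4 was listed through unoperated groups only, so its falls are given as a description. LPAR5 rose in juveniles (0.70 ± 0.19), and LPAR6 passed the test at neither age. LPAR1 was listed at 0 in 3 libraries and at 3.74 FPKM or more in the other 23. Only 1 of its transcript variants is in the table, and its surgery differences carry SEs of 0.82. ENPP2, the autotaxin that makes LPA, was abundant, with group medians of 358 to 610 FPKM, and passed the test for surgery at neither age (-0.20 and -0.37).

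The protease-activated receptors are cleaved by thrombin and by trypsin-like proteases. F2RL1, the trypsin-activated member, rose from 6.77, 8.04 and 10.5 FPKM to 13.7, 15.5 and 20.7 FPKM at 6 months, without overlap (0.87 ± 0.11, adjusted p = 8.73e-07 by limma). In juveniles it rose from 10.1, 10.6 and 12.8 FPKM to 12.6 to 19.9 FPKM (0.50 ± 0.11, adjusted p = 0.000964 by limma). The juvenile call was lost without the lens-rich libraries (0.37, adjusted p = 0.106 by limma). The thrombin receptor F2R rose at 6 months from a median of 7.92 to 10.5 FPKM (0.44 ± 0.13, adjusted p = 0.00846 by limma). It differed by -0.03 ± 0.13 in juveniles.

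Adhesion receptors carry long extracellular parts that bind matrix or neighbouring cells. ADGRA2 fell at both ages by similar amounts, from 87.8, 93.9 and 102 FPKM to 54.2, 61.7 and 72.0 FPKM at 6 months (-0.58 ± 0.07, adjusted p = 1.55e-07 by limma) and by 0.59 ± 0.07 in juveniles (adjusted p = 1.34e-07 by limma). ADGRV1, the very large Usher syndrome receptor, fell from 8.69, 13.2 and 21.3 FPKM to 4.67, 5.49 and 9.14 FPKM at 6 months (-1.24 ± 0.17), with 1 library of each group overlapping. In juveniles it fell by 1.08 ± 0.17 without overlap. ADGRE5 (CD97), a leukocyte receptor, rose by 0.44 ± 0.09 and 0.74 ± 0.09, and ADGRL4, an endothelial receptor, by 0.54 ± 0.13 and 0.39 ± 0.13. Of the 15 adhesion genes, 4 rose and 4 fell at 6 months, and 3 rose and 3 fell in juveniles, which is 53.3% and 40% called beside 46.1% and 37.3% of all genes. ADGRF5, ADGRG2, ADGRG6, ADGRL1 and ADGRL2 passed the test at neither age.

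GPRC5A, a retinoic acid inducible class C orphan, had the largest rise of any receptor at 6 months. It measured 1.63, 3.23 and 5.47 FPKM in unoperated and 11.8, 20.5 and 39.4 FPKM in operated eyes. In juveniles it measured 1.77, 1.96 and 2.79 FPKM in unoperated eyes, 13.5, 20.1 and 3.12 FPKM in operated 5-week eyes and 7.79, 11.5 and 13.7 FPKM in operated 6.5-week eyes. Within each age class all operated libraries lay above the unoperated ones, although the third operated 5-week library did so narrowly. The differences were 2.57 ± 0.31 (adjusted p = 4.27e-07 by limma) and 2.08 ± 0.31 (adjusted p = 1.03e-05 by limma). GPRC5B and GPRC5C passed the test at neither age. GPRC5B fell to between 0.09 and 0.68 FPKM in 4 libraries of 3 groups and was at 5.04 FPKM or more in all others.

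Among the numbered receptors, GPR4 is found in endothelium and GPR65 in leukocytes, and both sense extracellular acid. GPR4 rose at 6 months from 9.73, 11.9 and 14.6 FPKM to 13.8, 15.8 and 18.6 FPKM (0.39 ± 0.10) and was 0.23 higher in juveniles (adjusted p = 0.0798 by limma). GPR65 rose at both ages (0.85 ± 0.26 and 1.31 ± 0.26). GPR19, an orphan receptor at low level, rose by 1.46 ± 0.24 and 0.88 ± 0.24. It was listed through operated juveniles only and GPR65 through operated groups only. The rises of GPR19 and GPR65 are therefore given as a description.

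GPR183, an oxysterol receptor of lymphocytes, and GPR34, a lysophosphatidylserine receptor of microglia, passed the test in juveniles. GPR183 rose there from 0.78, 1.06 and 1.89 FPKM to between 2.46 and 5.21 FPKM (1.22 ± 0.18, adjusted p = 8.2e-06 by limma), and GPR34 from 2.38, 3.20 and 3.38 FPKM to between 3.77 and 6.69 FPKM (0.50 ± 0.14, adjusted p = 0.00539 by limma). At 6 months GPR183 differed by 0.37 ± 0.18 and GPR34 by -0.22 ± 0.14, neither past the threshold. The juvenile rises of P2RY13, GPR65, ADORA3 and LPAR5 given above are of genes listed through operated groups only. P2RY6, listed through unoperated 6-month eyes, differed by 0.59 ± 0.25 in juveniles (adjusted p = 0.0652 by limma). Among operated juveniles, 5-week replicate 3 was highest for GPR183, GPR34, GPR65, P2RY13, ADORA3 and LPAR5. It measured 6.33 FPKM for GPR65, beside 1.31 to 1.78 FPKM in the other operated juveniles. With single libraries left out, the juvenile difference ran from 1.08 to 1.32 for GPR183 and from 1.01 to 1.49 for GPR65. Macrophage markers rose in 11 of 11 measured genes in juveniles, with a median log2 difference of 2.07, and in 10 of 11 at 6 months, with a median of 1.57. Of the 4 measured T and B lymphocyte markers (11 in the list), 3 rose in juveniles and none at 6 months. None passed the test of the difference between the ages. Their sum reached 111 FPKM in the highest operated 5-week library, where the group median was 5.32 FPKM. Operated 6.5-week eyes had 3.79 to 7.29 FPKM, and unoperated 5-week eyes a median of 0.93 FPKM. At 6 months the sums were 1.43 to 37.9 FPKM in unoperated and 7.1 to 20.8 FPKM in operated eyes. All 3 measured neutrophil markers (9 in the list) rose at both ages. The part of these cells in the receptor values was not tested.

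With age, from 5 weeks to 6 months in unoperated eyes, 17 receptor genes were higher and 10 lower, 32.1% of the 84 beside 20.8% of all genes (11.4% higher and 9.46% lower). Of the 17 higher, 5 (PTGFR, ADGRL3, P2RY6, ADORA3 and LPAR5) were among the 10 genes listed through 6-month groups only, and none of the 6 listed through juvenile groups only was called. Without the 8 lens-rich libraries 5 were higher and 5 lower. That setting leaves 3 of the 7 unoperated 5-week libraries and so less power, and the share of all genes called in it is not given. PTGFR measured 0.42, 2.44 and 4.14 FPKM at 5 weeks and 3.95, 8.46 and 9.67 FPKM at 6 months, with 1 library of each group overlapping. Its difference was 1.61 ± 0.29, and as its listing already required high 6-month values this is given as a description. ADRA1A, the alpha-1 receptor of the iris dilator, rose from 2.66, 2.90 and 5.12 FPKM to 5.24, 6.02 and 7.33 FPKM (0.77 ± 0.14, adjusted p = 0.000474 by limma). ADRA1B rose by 0.68 ± 0.14, a call lost with the highest transcript of each gene (0.39, adjusted p = 0.11 by limma). CHRM1 rose from 1.95, 2.77 and 4.65 FPKM to 3.99, 5.38 and 8.53 FPKM (0.82 ± 0.18, adjusted p = 0.0025 by limma).

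VIPR2 rose with age by 0.34 ± 0.06 and S1PR1 by 0.40 ± 0.09, both without overlap of the groups. GPR34 rose by 0.71 ± 0.13 and GPR183 by 0.77 ± 0.17. In the same comparison 4 of 11 macrophage markers and 2 of 4 measured T and B lymphocyte markers rose, and none fell. Lower at 6 months were ADGRL1, a latrophilin of synapses, from 12.5, 14.7 and 17.0 FPKM to 7.93, 8.96 and 9.99 FPKM (-0.69 ± 0.11, adjusted p = 0.0001 by limma), HTR5A (-0.88 ± 0.16), HTR1A (-1.12 ± 0.22) and EDNRB (-0.47 ± 0.14). S1PR3 fell by 2.05 ± 0.45 (adjusted p = 0.00244 by limma), and by 1.19 without the lens-rich libraries (adjusted p = 0.0337 by limma). This comparison and the 6-month surgery comparison share the 7 unoperated 6-month libraries, in which S1PR3 was low and PTGFR high. Without the lens-rich libraries the calls of ADRA1A (adjusted p = 0.104), S1PR1 (0.13), GPR183 (0.118) and EDNRB (0.242) were lost, while those of CHRM1, GPR34, VIPR2, HTR1A, HTR5A and ADGRL1 were kept in all alternatives.

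**Figure D5:**
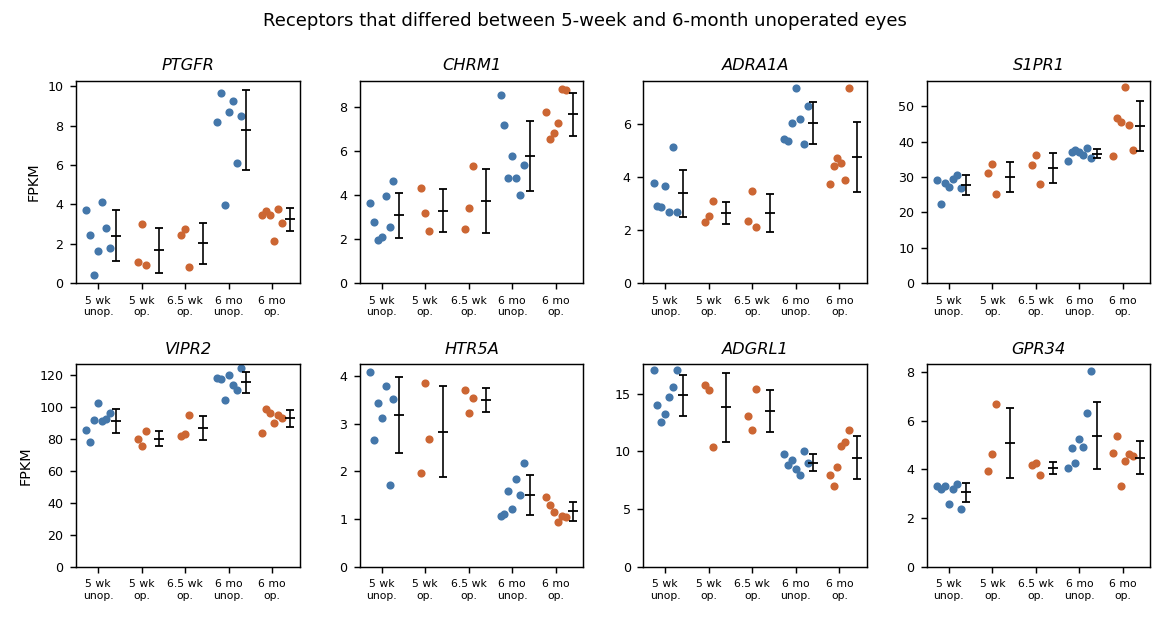
FPKM of 8 receptor genes in each library (points; blue unoperated, orange operated) by group, with mean and SD (black bar). In unoperated eyes PTGFR, CHRM1, ADRA1A, S1PR1, VIPR2 and GPR34 were higher at 6 months than at 5 weeks, and HTR5A and ADGRL1 lower; HTR5A had medians of 3.44 and 1.51 FPKM.

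In operated eyes, 10 receptor genes were higher and 7 lower at 6 months than in juveniles, 20.2% of the 84 beside 15.7% of all genes (5.88% higher and 9.78% lower). Of the 10 higher, 3 (GPR75, HTR1D and HTR2B) were among the 10 genes listed through 6-month groups only, where the listing favours such a call. None of the 6 listed through juvenile groups only was called. HTR5A measured 0.94, 1.10 and 1.46 FPKM at 6 months and 1.96, 3.85, 2.69, 3.71, 3.22 and 3.55 FPKM in the 6 juvenile operated libraries (-1.12 ± 0.17, adjusted p = 6.92e-05 by limma). CHRM1 measured 6.55, 7.51 and 8.82 FPKM and 2.38 to 5.32 FPKM in the same groups (1.06 ± 0.20, adjusted p = 0.000662 by limma). ADRA1A was 0.73 ± 0.15 higher, without overlap, ADORA1 0.41 ± 0.09 higher and ADGRL1 0.51 ± 0.12 lower. The ADGRL1 call was lost with only the compared groups in the fit (adjusted p = 0.0608 by limma) and without the lens-rich libraries (-0.38, adjusted p = 0.114 by limma). HTR5A, CHRM1 and ADRA1A were thus called in the same direction in operated and in unoperated eyes, from separate libraries. With only the operated groups in the fit, 4 receptors were higher and 2 lower.

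No receptor passed the limma test of the difference between the surgery effects at the 2 ages, where 1.09% of all genes did. At an unadjusted p under 0.05 there were 12 receptors (14.3%), beside 12.9% of all genes. The smallest adjusted p values were 0.0721 for GPR34 (-0.72 ± 0.19, higher with surgery in juveniles and not at 6 months), 0.0989 for HTR1A (1.14 ± 0.32, a smaller fall) and 0.121 for GPR183 (-0.85 ± 0.25), all by limma. Leaving out single libraries brought in GPR34 (without operated 5-week replicate 1, adjusted p = 0.0428), HTR1A (without unoperated 5-week replicate 2, adjusted p = 0.0424) and CHRM4 (without operated 6-month replicate 6, -1.11 ± 0.21, adjusted p = 0.00592). Between the operated 6.5-week and 5-week eyes no receptor was called, beside 0.0154% of all genes, with 14 receptors (16.7%) at an unadjusted p under 0.05 and 10.3% of all genes.

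Downstream of the receptors, most listed RGS proteins, which switch G proteins off, were higher in operated eyes. Of the 10 measured among 20 in the list, 8 were higher and 1 lower at 6 months, and 7 were higher and 1 lower in juveniles, 90% and 80% called beside 46.1% and 37.3% of all genes. Their median log2 difference was 0.77 and 1.02, beside -0.11 and -0.06 over all genes. RGS2, which acts on Gq, rose from 19.3, 27.5 and 53.5 FPKM to 121, 134 and 181 FPKM at 6 months (2.13 ± 0.24, adjusted p = 1.53e-07 by limma) and by 2.17 ± 0.24 in juveniles (adjusted p = 1.59e-07 by limma). RGS5, a pericyte gene, rose by 1.57 ± 0.22 and 1.22 ± 0.22. The smooth muscle and pericyte markers showed no common direction (2 higher and 4 lower of 10 at 6 months, 3 and 3 in juveniles). RGS5 is itself in that marker list and counts among the higher genes at both ages. RGS1 (1.85 and 1.94) and RGS18 (1.90 and 1.53), both known from blood cells, rose from under 1 FPKM in all unoperated eyes. They were thus listed through operated groups only, which favours a rise, and both count among the 8 and 7 higher genes. RGS7 rose by 0.97 and 1.36. RGS17, a regulator of Gi, fell by 0.63 ± 0.16 and 0.60 ± 0.16.

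Of 10 receptor kinases and arrestins, 6 rose and 1 fell at 6 months, and 6 rose and none fell in juveniles, 70% and 60% called beside the same 46.1% and 37.3% of all genes. ARRDC3 rose by 1.18 ± 0.24 and 1.16 ± 0.24, and the receptor kinase GRK2 by 0.32 ± 0.08 and 0.62 ± 0.08. Of 19 G protein subunits, 2 rose and 5 fell at 6 months and 3 rose and 4 fell in juveniles, 36.8% at each age, below the share of all genes at 6 months (46.1%) and near it in juveniles (37.3%). The gamma subunit GNG11 fell from 67.7, 90.1 and 129 FPKM to 37.3, 45.5 and 53.3 FPKM at 6 months (-0.99 ± 0.12) and by 0.46 ± 0.12 in juveniles, and GNG5 rose by 0.52 ± 0.07 and 0.45 ± 0.07.

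Of 23 genes of cyclic AMP synthesis, breakdown and response, 6 rose and 5 fell at 6 months and 5 rose and 3 fell in juveniles, 47.8% and 34.8% called, near the 46.1% and 37.3% of all genes. CREM, a transcription factor gene induced by cyclic AMP, rose from 3.66, 4.55 and 5.33 FPKM to 11.1, 11.7 and 13.4 FPKM at 6 months (1.32 ± 0.09, adjusted p = 5.91e-11 by limma) and by 1.21 ± 0.09 in juveniles (adjusted p = 3.34e-10 by limma). The phosphodiesterase PDE4B rose by 0.84 ± 0.10 and 0.60 ± 0.10. The adenylyl cyclase ADCY9 fell by 0.40 ± 0.07 and 0.31 ± 0.07. ADCY5 rose in juveniles (0.83 ± 0.09) and not at 6 months (0.20 ± 0.09), and it was the 1 gene of this list called in the test between the ages.

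Of 16 effectors of Gq and G12/13, 2 rose and 6 fell at 6 months and 4 rose and 2 fell in juveniles, 50% and 37.5% called, again near the 46.1% and 37.3% of all genes. The phospholipase PLCB4 fell from 106, 121 and 158 FPKM to 38.0, 49.3 and 62.0 FPKM at 6 months (-1.36 ± 0.13, adjusted p = 6.75e-09 by limma) and by 0.72 ± 0.13 in juveniles. PLCB1, at lower level, rose by 0.56 ± 0.18 and 0.82 ± 0.18, and RHOA by 0.32 ± 0.06 and 0.21 ± 0.06.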

How the data were processed

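RNA of 26 iris and ciliary body samples was sequenced on the DNBseq platform, per the labels; the 23 cornea samples of the 49 in the labels are not analysed here. The authors deposited FPKM per RefSeq transcript and library, per the file headers, in a table of 16725 transcripts. RSEM 1.2.12, Bowtie2 2.2.5, HISAT2 2.0.4 and HISAT are tools in the submitters' processing notes, with no role stated. The genome build was not given in the sources used here. Of all values 1.133% are 0.

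FPKM were summed over transcripts of a symbol (99 transcripts for the 84 receptor genes, 12 of which had several). Of the symbols, 1863 are locus numbers and were kept as such, so receptors under such numbers are outside the list. A filter of 1 FPKM in at least 3 libraries removed no gene, and all 84 receptors passed. A model with 1 mean for each group of the 26 libraries was fitted by limma 3.58.1 (R 4.3.3) to log2(FPKM + 0.5), with trend and robust moderation. Benjamini-Hochberg adjustment ran over 12948 genes in each of 6 comparisons. Because of the added 0.5, differences of low genes come out too small. Genes are said to rise, fall or change at an adjusted p under 0.05. The fitting was tested on simulated data. Values in threes are lowest, median and highest of groups over 5 libraries.

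The members and lists were chosen with earlier results of these data known. By the rule for named genes, S1PR3 and up to 12 receptors per direction and comparison with the smallest adjusted p are given in full, first those with a difference of at least 1 and no overlap. Some receptors are not reported here. Further receptors are given by level and difference, and pathway genes were taken from fixed lists by smallest p. Other settings covered pseudocount, filter, scaling, transcript choice, groups in the fit, lens-rich libraries, lens and retina covariates, and single libraries left out. Leaving out libraries rich in retina markers, and 3 late-numbered 5-week libraries, was added after seeing the data.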

Additional observations from a re-analysis of the deposited data

Results flagged for a closer look

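Libraries standing far from the rest of their group were sought for 49 receptors with full values in 3 groups of 6 or 7 libraries, by the gap to the nearest library over the range of the group. Of 147 such tests 15 stood out, and chance gives about 1 in 20. In operated 6-month eyes, replicate 6 was highest for CHRM4 (42.11 FPKM, next 15.6), ADRA1B (15.83 FPKM, next 11.6) and ADRA1A (7.32 FPKM, next 4.71). In the same group replicate 3 was highest for ADGRV1 (9.14 FPKM, next 5.67) and replicate 5 for ADGRL3 (1.72 FPKM, next 1.41).

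In unoperated 6-month eyes, replicate 3 was highest for GPR83 (16.27 FPKM, next 7.82) and GPR85 (9.34 FPKM, next 7.42), replicate 7 for ADORA3 (2.84 FPKM, next 1.57) and GPR65 (2.33 FPKM, next 1.24), and replicate 1 for ADRA1B (11.35 FPKM, next 7.74). AGTR1 was listed at 0 in replicate 6, where the next lowest library had 2.73 FPKM. In unoperated 5-week eyes ADORA2A was lowest in replicate 4 (3.09 FPKM, next 4.39), and the highest libraries were replicate 1 for F2RL1 (12.82 FPKM), replicate 6 for GPR183 (1.89 FPKM, next 1.14) and replicate 5 for GPRC5A (2.79 FPKM, next 2.01).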

How the results depend on the processing

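Of 91 named results, 57 kept their call, or stayed without one, in every setting, among them every named surgery result at 6 months. The other 34 lost their call in at least 1. No called result reversed. Differences of S1PR3 that were not called changed sign between settings. They ran from -0.15 to 0.75 for surgery in juveniles and from -0.15 to 0.38 for age in operated eyes. Between operated 6.5-week and 5-week eyes the S1PR3 difference ran from -0.75 to 0.26. Without the libraries over 1000 FPKM of CRYAA, 26 of the 91 results lost their call. With a mean of at least 5 FPKM required, 47 receptors remained; higher and lower then numbered 12 and 9 for surgery at 6 months, 7 and 6 for surgery in juveniles, 8 and 6 for age in unoperated and 4 and 4 for age in operated eyes. Without the lens-rich libraries they numbered 12 and 9 for surgery in juveniles, 5 and 5 for age in unoperated and 5 and 3 for age in operated eyes. Lens and retina covariates left 6 lower with age in unoperated eyes. Equal library sums gave 24 lower with surgery in juveniles. Fitting the compared groups alone gave 26 higher with age in unoperated eyes, and 4 higher and 2 lower in operated eyes. For age in operated eyes the highest transcript gave 5 higher; 4 were lower with the 5-week operated eyes alone, without retina-rich libraries and without the late-numbered libraries. Leaving out 1 library at a time gave 17 to 21 higher and 13 to 17 lower (surgery, 6 months), 17 to 20 and 11 to 18 (juveniles), 15 to 19 and 7 to 11 (age, unoperated), 8 to 11 and 3 to 7 (age, operated), and 0 to 1 each for the difference between ages. Where a call was lost, the cause was not tested. Shares of all genes called are not given for these settings, and settings with fewer libraries have less power. The counts therefore do not set receptors apart from other genes. Depth is unknown, so low genes such as GPR19 carry an unknown counting error. No paired analysis was possible because the labels give no replicate numbers that link libraries across groups.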
